A study of Mus musculus with 26 samples.

Results

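Male germ cells carry several enzymes that handle peroxides and protein thiols, and some of them are made mainly in the cells that become sperm. The genes described here are *Gpx1*, *Gpx4*, *Txndc2*, *Txndc8*, *Nme8*, *Txnrd3*, *Selenov*, *Prdx4*, *Prdx6* and *Sod1*. They were chosen by gene symbol, and all 10 were found among the 51124 genes of the deposited table. Whole testes of adult mice of 3 genotypes gave rRNA-depleted total RNA libraries, 2 per genotype, each from a different mouse. N1 and N2 came from wild-type mice, N3 and N4 from homozygous *10xPerf* mice, and N5 and N6 from homozygous *10xBulge* mice. *10xPerf* mice have an array of 10 target sites for a pachytene piRNA known as piR-A, placed within the *Ythdc2* 3′UTR and each fully complementary to the piRNA. *10xBulge* mice carry 10 sites in the same place, each with mismatches opposite piRNA nucleotides 10 and 11. The knock-in founders were made in B6D2F1/J embryos with Cas9. The origin of the wild-type mice and the number of founders behind each line are not given in the sources used here. Of the 26 samples of the series, the 20 MILI and MIWI immunoprecipitation libraries were not analysed here.

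Glutathione peroxidases and peroxiredoxins reduce peroxides, the first with electrons from glutathione and the second mostly with electrons from thioredoxin. Thioredoxin is recharged by thioredoxin reductase with NADPH, and superoxide dismutase produces the hydrogen peroxide that these enzymes remove. In the testis the system also has a structural use. Late spermatids oxidise the thiols of protamines and of sperm tail proteins, and the selenoprotein GPX4 becomes part of the capsule around sperm mitochondria.

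Several of these enzymes use selenocysteine, the amino acid encoded by a UGA codon that is read through instead of ending translation. The codon and its neighbours are shown because it defines which of the 10 genes are selenoprotein genes. It was read from the longest GENCODE M21 coding sequence of each gene on GRCm38, with 12 bases on each side, and the TGA is in capitals. Codon numbers are those of that coding sequence and would differ in a shorter form of the protein.
*Gpx1*: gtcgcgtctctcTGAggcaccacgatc
*Gpx4*: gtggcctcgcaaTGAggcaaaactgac
*Txnrd3*: cagaaaggctgcTGAggctagccctgc
*Selenov*: tactgtggcctcTGAagctatggcctt
Each of these 4 coding sequences holds 1 in-frame TGA before its stop codon, and the other 6 hold 0. In *Gpx1* it is codon 47 of 201, in exon 1 of 2 (chr9:108339451-108339453, forward strand). In *Gpx4* it is codon 129 of 253, in exon 3 of 7 (chr10:80054737-80054739, forward strand). The *Txnrd3* codon is the next to last, 614 of 615, in exon 16 of 16 (chr6:89674789-89674791, forward strand), and that of *Selenov* is 255 of 328, in exon 2 of 6 (chr7:28288486-28288488, reverse strand).

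The deposited values are normalized read counts, and their depth corresponded to roughly 41.1 to 61.6 M reads per library. A count of 3 reads was worth between 2.732 and 3.63 normalized counts, a floor that covers counting error only. Every member was above that floor in all 6 libraries. The labelled tissue showed its markers. Spermatocyte markers (8 genes) summed to between 106386 and 187240 normalized counts in all 6 libraries, with *Hspa2* and *Ldhc* holding most of each sum. Against wild type, 1 of these 8 rose in *10xBulge* in limma (12.5%, beside 11.4% of all genes tested) and 0 fell. The 8 spermatid markers summed to between 483430 and 676005 in wild type and *10xPerf*, and to 1615 and 963 in the *10xBulge* pair. All 8 fell in *10xBulge* against wild type, by log2 fold changes of -10.97 to -3.48, beside 23.0% of all genes called lower. Of 6 epididymis markers, 2 were at 0 in every library and the sum did not exceed 25.7. *Ythdc2*, the gene that carries the sites, had 827 and 2412 normalized counts in the wild-type pair, 1334 and 1136 in the *10xPerf* pair, and 1202 and 2458 in the *10xBulge* pair, and it was not past the threshold in either line (limma adjusted p = 0.939 and 0.754).

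Tests were made on log2(normalized count + 1) with limma over the 23782 genes that passed a filter on low values, which all 10 members did. A gene was called when its Benjamini-Hochberg adjusted p was under 0.1. With 2 libraries against 2, an exact permutation test of a single gene could not go below 0.33, so the tests rest on the spread that limma estimates over all genes.

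Of the 10 members, 6 fell in *10xBulge* against wild type and 0 rose in limma, with 0 of the other 4 at an unadjusted p under 0.05. Over all genes tested, 23.0% were called lower and 11.4% higher. The 6 were *Gpx4*, *Txndc2*, *Txndc8*, *Nme8*, *Selenov* and *Prdx4*, and their changes ranged from 4.59-fold to 90.2-fold. *Gpx1*, *Txnrd3*, *Prdx6* and *Sod1* did not pass the threshold. The median log2 fold change of the members was -2.28, against -0.03 over all genes tested. The same 6 genes were also lower in *10xBulge* than in *10xPerf*, where 24.1% of all genes were called lower. Counted without a test, 6 members had both *10xBulge* libraries below both of wild type (33.2% of all genes) and 2 had both above (28.9%). Against *10xPerf* the members were again 6 (35.3%) and 2 (30.7%). Both comparisons share the *10xBulge* libraries. In bulk RNA, fewer cells of a type and less RNA per cell cannot be told apart. The spermatid markers moved with the 6 genes, as given above, and their part in the result was not tested.

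**Figure D1:**
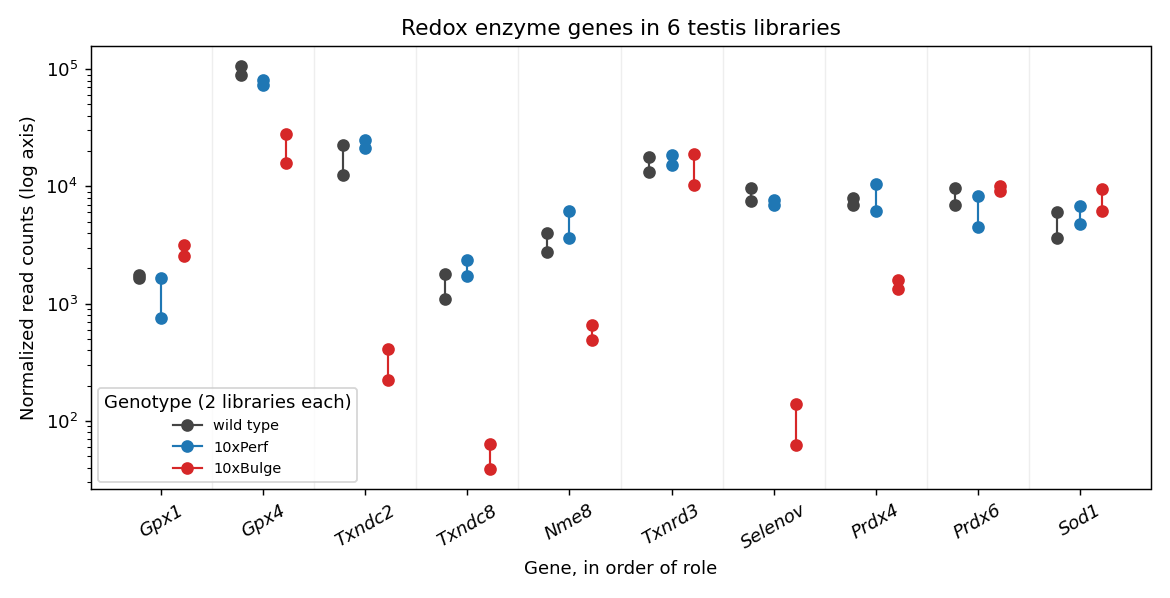
Normalized read counts on a log axis for the 10 redox enzyme genes, ordered by role, with 1 point per library and a line joining the 2 libraries of a genotype (grey, wild type; blue, *10xPerf*; red, *10xBulge*). The red points lie below all others for *Gpx4*, *Txndc2*, *Txndc8*, *Nme8*, *Selenov* and *Prdx4*, and above both wild-type points for *Gpx1* and *Sod1*.

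Among the glutathione peroxidases, *Gpx4* (ENSMUSG00000075706.12; GRCm38 chr10:80047166-80056439) encodes the enzyme that reduces lipid hydroperoxides in membranes and is abundant in sperm. All gene positions are on GRCm38. It had 88379 and 106222 normalized counts in the wild-type pair, 72816 and 81524 in the *10xPerf* pair, and 28101 and 15877 in the *10xBulge* pair. Both *10xBulge* libraries were below the other 4, and both *10xPerf* libraries were below wild type. The *10xBulge* level was 4.59-fold lower than wild type (log2 fold change -2.20, with standard error 0.47 and limma adjusted p = 0.00756). Against *10xPerf* the log2 fold change was -1.87 (limma adjusted p = 0.0163), and the call was lost without N3 (adjusted p = 0.133) or without N4 (adjusted p = 0.134). Of the listed pseudogenes of members, *Gpx4-ps2* was the highest and reached 12.1 normalized counts. Even after the fall, *Gpx4* stayed the highest of the 10 genes per kilobase in both *10xBulge* libraries.

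*Gpx1* (ENSMUSG00000063856.9; chr9:108338903-108340343) encodes the widely expressed cytosolic glutathione peroxidase. Its values were 1739 and 1647 in the wild-type pair, 758 and 1663 in the *10xPerf* pair, and 3183 and 2538 in the *10xBulge* pair. Here the *10xBulge* libraries were the highest of the 6, and N3 was the lowest. The log2 fold change of 0.75 against wild type did not pass the threshold (95% confidence interval -0.28 to 1.78, limma adjusted p = 0.26). Against *10xPerf*, *Gpx1* was the 1 member that rose, with a log2 fold change of 1.34 (standard error 0.46 and limma adjusted p = 0.0559), beside 12.9% of all genes called higher. That call rested on single libraries, since it was lost without N3 (log2 fold change 0.77, adjusted p = 0.369) and without N5 (1.18, adjusted p = 0.158).

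The 3 germ cell thioredoxin genes all fell in *10xBulge*. *Txndc2* (ENSMUSG00000050612.7; chr17:65637507-65642168) encodes a spermatid thioredoxin of the fibrous sheath of the sperm tail. It was at 12451 and 22512 normalized counts in the wild-type pair and at 24788 and 21132 in the *10xPerf* pair, but at 408 and 225 in the *10xBulge* pair. The *10xPerf* and wild-type libraries overlapped, and the *10xBulge* pair lay far below both. The log2 fold change was -5.78, or 55.1-fold lower (standard error 0.47 and limma adjusted p = 2.23e-05).

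*Txndc8* (ENSMUSG00000038709.16; chr4:57984027-58009124), a thioredoxin of the spermatid Golgi and acrosome, had 1091 and 1780 normalized counts in the wild-type pair, 1706 and 2380 in the *10xPerf* pair, and 64.2 and 39.2 in the *10xBulge* pair. The *10xBulge* libraries were again the lowest, and those of the other genotypes overlapped. It fell by 4.77 on the log2 scale, a 27.2-fold difference (standard error 0.45 and limma adjusted p = 5.64e-05). *Nme8* (ENSMUSG00000041138.17; chr13:19645078-19697794) joins a thioredoxin domain to nucleoside diphosphate kinase domains and is linked to cilia and the sperm tail. Its counts were 2768 and 3984 in the wild-type pair, 6116 and 3639 in the *10xPerf* pair, and 491 and 653 in the *10xBulge* pair. Of the 3, it had the log2 fold change nearest to 0 (-2.55, with standard error 0.43 and limma adjusted p = 0.00206). The 95% confidence intervals were -3.52 to -1.57 for *Nme8*, -5.79 to -3.74 for *Txndc8* and -6.83 to -4.73 for *Txndc2*. The difference between genes was not tested.

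*Txnrd3* (ENSMUSG00000000811.15; chr6:89643988-89675529) encodes the testis thioredoxin reductase, which also carries a glutaredoxin domain and reduces both thioredoxin and glutathione systems. It had 13328 and 17819 normalized counts in the wild-type pair, 15260 and 18383 in the *10xPerf* pair, and 19017 and 10267 in the *10xBulge* pair. N5 was the highest of the 6 libraries and N6 the lowest, and the genotypes overlapped. The log2 fold change in *10xBulge* was -0.14 (95% confidence interval -1.16 to 0.88, limma adjusted p = 0.849). Its direction was not stable, turning to 0.24 when libraries were scaled to equal totals and to 0.30 without N6.

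*Selenov* (ENSMUSG00000046750.19; chr7:28284652-28291186) encodes selenoprotein V, a thioredoxin-fold selenoprotein found mainly in the testis. Its values were 9702 and 7481 in the wild-type pair and 7645 and 6944 in *10xPerf*. In *10xBulge* they were 140 and 62.2, the largest fold difference of the 10 members. The log2 fold change was -6.50, or 90.2-fold lower (standard error 0.46 and limma adjusted p = 1.27e-05). Of the 4 members with a selenocysteine codon shown above, *Selenov* and *Gpx4* fell, and *Gpx1* and *Txnrd3* did not pass the threshold.

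Of the 2 peroxiredoxin genes, *Prdx4* fell and *Prdx6* did not pass the threshold, and the difference between them was not tested. *Prdx4* (ENSMUSG00000025289.16; chrX:155323918-155340754), the peroxiredoxin of the endoplasmic reticulum, had 7945 and 6946 normalized counts in the wild-type pair, 6129 and 10394 in the *10xPerf* pair, and 1323 and 1578 in the *10xBulge* pair. Its *10xPerf* libraries lay on either side of wild type, and both *10xBulge* libraries lay below all 4. It fell 5.14-fold (log2 fold change -2.36, with standard error 0.41 and limma adjusted p = 0.00252). *Prdx6* (ENSMUSG00000026701.16; chr1:161240112-161251219), a cytosolic peroxiredoxin that also acts as a phospholipase, had 9628 and 6971 in the wild-type pair, 4509 and 8284 in the *10xPerf* pair, and 10142 and 9155 in the *10xBulge* pair. The wild-type and *10xBulge* libraries overlapped, and the log2 fold change was 0.23 (95% confidence interval -0.76 to 1.23, limma adjusted p = 0.736).

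*Sod1* (ENSMUSG00000022982.11; chr16:90220754-90226329) encodes the cytosolic copper-zinc superoxide dismutase found in most cells. It had 6011 and 3650 normalized counts in the wild-type pair, 4784 and 6844 in the *10xPerf* pair, and 9456 and 6205 in the *10xBulge* pair. Both *10xBulge* libraries were above wild type, but N6 was below N4. The log2 fold change of 0.71 did not pass the threshold (95% confidence interval -0.30 to 1.72, limma adjusted p = 0.275). With libraries scaled to equal totals, which moved the median of all genes to 0.35 in this comparison, *Gpx1* and *Sod1* passed it at 1.13 (adjusted p = 0.0541) and 1.09 (adjusted p = 0.0485).

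**Figure D2:**
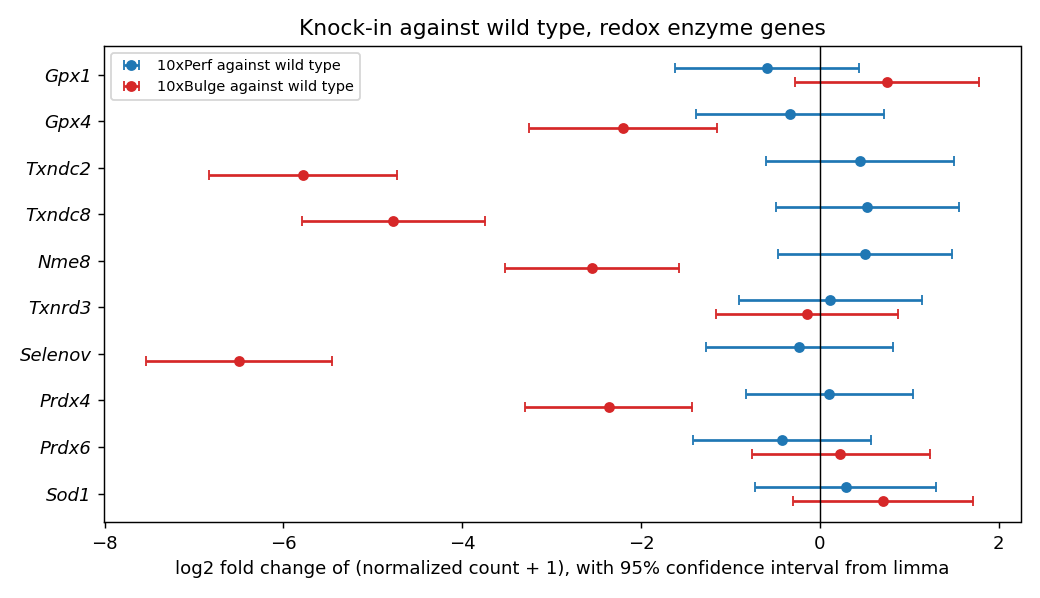
Log2 fold changes of the 10 genes in *10xPerf* (blue) and *10xBulge* (red) against the same wild-type libraries, with 95% confidence intervals from limma. All blue intervals cross 0, and the red intervals of *Gpx4*, *Txndc2*, *Txndc8*, *Nme8*, *Selenov* and *Prdx4* lie wholly below 0.

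In *10xPerf* against wild type, 0 of the 10 members passed the threshold in limma, and 0 had an unadjusted p under 0.05. Over all genes tested, 0.467% were called higher and 0.492% lower. The members' log2 fold changes ran from -0.59 for *Gpx1* to 0.53 for *Txndc8*, with a median of 0.11 against 0.02 over all genes. *Gpx4* was the member whose *10xPerf* libraries did not overlap wild type, being lower in both (log2 fold change -0.33, limma adjusted p = 0.883). Among all genes, 19.8% were lower and 20.2% higher without overlap, and 0 members were higher. With 2 libraries a genotype the intervals were wide, for *Gpx4* from -1.38 to 0.72 and for *Nme8* from -0.47 to 1.48. Changes of a size inside them remain possible.

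Levels were compared between genes per kilobase of transcript. *Gpx4* stood far above the others in the wild-type pair, at 97789 ± 12681 normalized counts per kilobase (SD, n = 2), and was number 9 of 17505 protein-coding genes. *Txndc2* followed at 9394 ± 3823, *Sod1* at 7536 ± 2604, *Prdx4* at 7521 ± 714, *Selenov* at 6781 ± 1239 and *Txnrd3* at 5491 ± 1120. Neighbours among these 5 overlapped. *Prdx6* at 3477 ± 787 lay below *Txnrd3* and above *Txndc8* without overlap. *Txndc8* at 2316 ± 786, *Nme8* at 1591 ± 405 and *Gpx1* at 1579 ± 60.4 came last, and neighbours among these 3 overlapped. The order depends on the length used. With coding length, 8 of the 10 genes changed place, and *Prdx6*, whose transcript of 2387 bases holds 672 coding bases, moved from place 7 to place 2.

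The order in *10xBulge* was different. *Gpx4* remained first at 22099 ± 8687 normalized counts per kilobase (SD, n = 2), with *Sod1* next at 12216 ± 3587, *Txnrd3* at 5163 ± 2182, *Prdx6* at 4042 ± 292 and *Gpx1* at 2668 ± 426. Of these 5, the *Txnrd3* and *Prdx6* libraries overlapped. *Gpx1* was at place 10 in wild type and at place 5 here. The lowest 4 were *Nme8* at 270 ± 54, *Txndc2* at 170 ± 69.2, *Txndc8* at 83.4 ± 28.5 and *Selenov* at 79.8 ± 43.4, with *Txndc2* moving from place 2 to place 8. Of these 4, the *Txndc8* and *Selenov* libraries overlapped. As a share of the summed level of the 10 genes, *Gpx4* made up 66.3% and 69.8% in the wild-type pair, 61.1% and 59.8% in *10xPerf*, and 47.9% and 42.4% in *10xBulge*. The share of *Sod1* was between 3.72% and 7.79% in the first 4 libraries and was 25.0% and 25.7% in *10xBulge*. The summed level itself was 119800 to 152957 per kilobase in wild type and *10xPerf*, and 58919 and 37594 in the *10xBulge* pair.

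**Figure D3:**
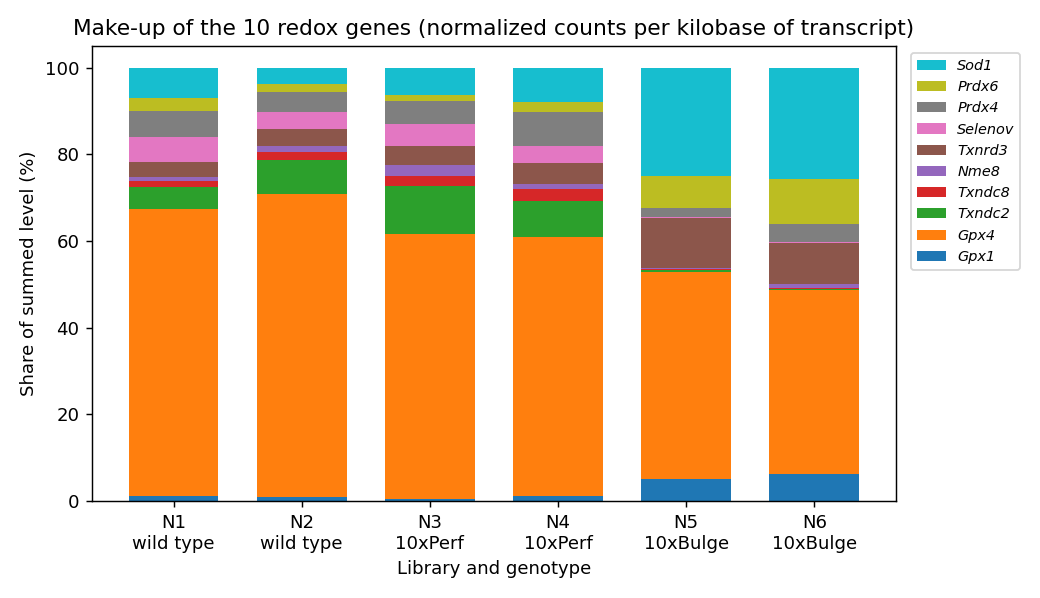
Share of each gene, in percent, of the summed level of the 10 redox genes (normalized counts per kilobase of transcript) in each library, stacked to the whole. *Gpx4* takes the greater part in wild type and *10xPerf* and less in N5 and N6, where *Sod1*, *Txnrd3*, *Prdx6* and *Gpx1* take more.

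Ratios between genes within a library do not depend on a scaling factor common to that library. The pairs were chosen after their values were seen, so the ratios are a description, and as counts are not divided by length only their change between libraries is read. The log2 ratio of *Gpx1* to *Gpx4* was -5.67 and -6.01 in the wild-type pair, -6.58 and -5.61 in the *10xPerf* pair, and -3.14 and -2.64 in the *10xBulge* pair. That of *Prdx6* to *Prdx4* was 0.28 and 0.01 in the wild-type pair, -0.44 and -0.33 in the *10xPerf* pair, and 2.94 and 2.54 in the *10xBulge* pair. In both pairs the *10xBulge* libraries stood above all others. *Txnrd3* to *Txndc2*, a reductase against a germ cell thioredoxin, went from between -0.70 and 0.10 in the first 4 libraries to 5.54 and 5.50. *Nme8* to *Prdx4*, which both fell, was between -1.52 and 0.00 in the first 4 and at -1.43 and -1.27 in the *10xBulge* pair, inside that range.

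**Figure D4:**
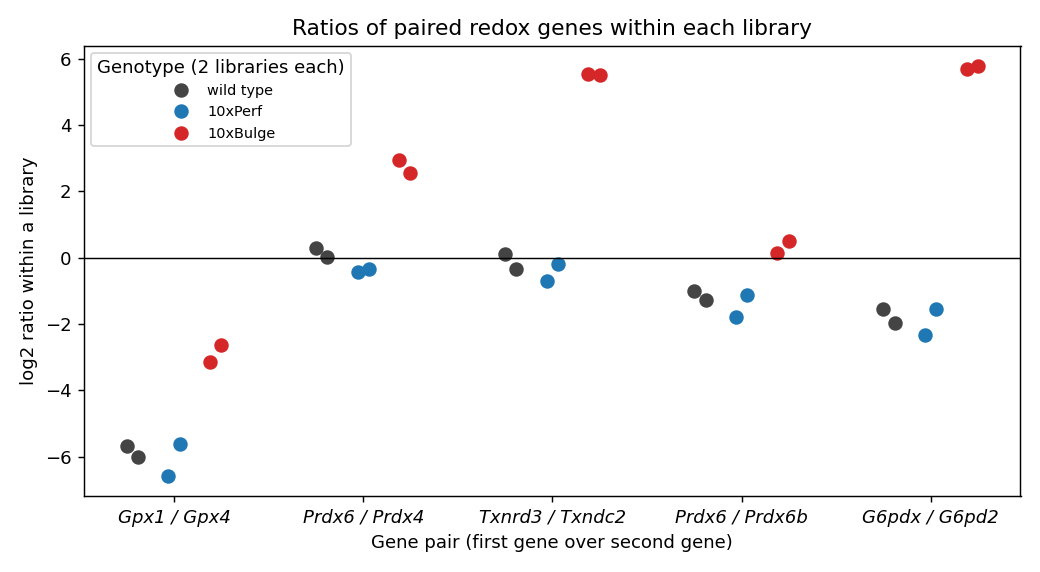
Log2 ratios of normalized counts for 5 pairs of redox genes, with 1 point per library (grey, wild type; blue, *10xPerf*; red, *10xBulge*). In every pair plotted both red points lie above the other 4, by the widest margin for *G6pdx* to *G6pd2*.

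The wider redox system was taken from 5 lists with 63 other genes, of which 61 were tested. *Gpx5* and *Gpx2* did not pass the filter and did not exceed 18.6 and 5.84 normalized counts. In *10xBulge* against wild type 17 of the 61 rose (27.9%, beside 11.4% of all genes), 6 fell (9.84%, beside 23.0%) and 38 did not pass the threshold. The median log2 fold change was 0.78. In *10xPerf*, limma called 0 of the 61, and 2 had an unadjusted p under 0.05. The count of 17 was unstable. It became 35 with libraries scaled to equal totals, 28 with the trend with GC content removed and 9 with only wild type and *10xBulge* in the fit. Leaving out N1 gave 4, N2 10, N3 9, N4 9 and N5 10. Markers of Sertoli cells, Leydig cells and macrophages moved the same way. The 7 Sertoli markers summed to 16890 to 24883 normalized counts in wild type and *10xPerf* and to 51697 and 32211 in the *10xBulge* pair. Of these markers, 5 rose against wild type (71.4%, beside 11.4% of all genes). For the 6 Leydig markers the sums were 43405 to 76468 against 285571 and 137284 (4 rose, 66.7%). Those of the 6 macrophage markers were 2315 to 4376 against 11140 and 7916 (5 rose, 83.3%). The 6 spermatogonia markers summed to 4362 to 9320 against 16358 and 13059 (1 rose, 16.7%). The 5 erythrocyte markers summed to 634 to 1744 against 1042 and 915 (0 rose of the 4 tested, with 0 at an unadjusted p under 0.05). The part of these cells in the result was not tested.

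Of 9 tested genes of glutathione peroxidases, reductase and synthesis, 2 rose (22.2%, beside 11.4% of all genes) and 1 fell (11.1%, beside 23.0%). *Gsr*, the glutathione reductase, had 1680 and 1159 normalized counts in the wild-type pair, 990 and 1443 in the *10xPerf* pair, and 4024 and 2433 in the *10xBulge* pair (log2 fold change 1.16, limma adjusted p = 0.0823). The *Gsr* call was lost when any library but N6 was left out, with adjusted p up to 0.283. *Gpx6*, a further glutathione peroxidase, had 593 and 671 in the wild-type pair, 1621 and 1464 in the *10xPerf* pair, and 6.1 and 4.77 in the *10xBulge* pair (log2 fold change -6.63, limma adjusted p = 7.45e-06). Its *10xPerf* libraries were both above wild type, without passing the threshold (log2 fold change 1.29, limma adjusted p = 0.474).

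Of 11 thioredoxins, reductases and glutaredoxins, 5 rose (45.5%, beside 11.4% of all genes) and 2 fell (18.2%, beside 23.0%). *Txn1*, the general cytosolic thioredoxin, had 502 and 480 normalized counts in the wild-type pair, 415 and 857 in the *10xPerf* pair, and 1951 and 1962 in the *10xBulge* pair, a 3.98-fold rise (log2 fold change 1.99, with standard error 0.44 and limma adjusted p = 0.0096). This is the opposite direction to the 3 germ cell thioredoxins. *Glrx2*, a glutaredoxin with mitochondrial and testis forms, had 4242 and 3182 in the wild-type pair, 4613 and 5265 in the *10xPerf* pair, and 726 and 672 in the *10xBulge* pair (log2 fold change -2.39, limma adjusted p = 0.00135).

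Peroxiredoxins, sulfiredoxin, superoxide dismutases and catalase gave 2 higher (20.0%, beside 11.4% of all genes) and 2 lower (20.0%, beside 23.0%) of 10. *Prdx3*, the mitochondrial peroxiredoxin, had 1327 and 1257 normalized counts in the wild-type pair, 775 and 1696 in the *10xPerf* pair, and 4007 and 3525 in the *10xBulge* pair (log2 fold change 1.54, limma adjusted p = 0.0343). Without N1 or N2 its adjusted p was 0.139 or 0.123. *Srxn1*, the sulfiredoxin that restores overoxidised peroxiredoxins, had 2556 and 1945 in the wild-type pair, 3345 and 3340 in the *10xPerf* pair, and 154 and 111 in the *10xBulge* pair, a 16.9-fold fall (log2 fold change -4.08, limma adjusted p = 6.01e-05). *Prdx6b*, a copy of *Prdx6* named here after its values were seen, had 19458 and 17098 in the wild-type pair, 15473 and 18212 in the *10xPerf* pair, and 9238 and 6493 in the *10xBulge* pair (log2 fold change -1.24, limma adjusted p = 0.0526). Its call was lost without N1 (adjusted p = 0.174), N2 (0.104), N3 (0.11), N4 (0.115) or N6 (0.128). As the copies share sequence, reads may be split between *Prdx6* and *Prdx6b*, and both levels are uncertain to that extent. The log2 ratio of *Prdx6* to *Prdx6b* lay between -1.78 and -1.01 in wild type and *10xPerf* and was 0.13 and 0.50 in the *10xBulge* pair.

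Other selenoproteins and the selenocysteine machinery gave 2 higher (10.5%, near the 11.4% of all genes) and 0 lower of 19. The 2 were *Sepsecs* and, named after its values were seen, *Sephs1*, both of the machinery. An unadjusted p under 0.05 was found for 3 of the 19, beside 9148 of the 23782 genes tested. *Sepsecs*, which makes selenocysteine on its tRNA, had 977 and 1512 normalized counts in the wild-type pair, 1577 and 1809 in the *10xPerf* pair, and 2295 and 3261 in the *10xBulge* pair (log2 fold change 1.17, limma adjusted p = 0.0668). It was no longer called without N1 (adjusted p = 0.265), N3 (0.127), N4 (0.128) or N6 (0.197). The 2 selenoprotein genes that fell, *Gpx4* and *Selenov*, are members and are outside that list.

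Among 12 genes of NADPH supply and the NRF2 response, 6 rose (beside 11.4% of all genes) and 1 fell (beside 23.0%). *Idh1*, the cytosolic isocitrate dehydrogenase, had 1096 and 2298 normalized counts in the wild-type pair, 2212 and 3467 in the *10xPerf* pair, and 9623 and 6936 in the *10xBulge* pair, a 5.15-fold rise (log2 fold change 2.36, limma adjusted p = 0.00596). *G6pd2*, the intronless testis copy of glucose-6-phosphate dehydrogenase, had 1789 and 2346 in the wild-type pair, 2603 and 2098 in the *10xPerf* pair, and 59.2 and 21 in the *10xBulge* pair, a 56.3-fold fall (log2 fold change -5.82, limma adjusted p = 3.79e-05). The X-linked *G6pdx*, named after its values were seen, had 604 and 595 in the wild-type pair, 517 and 712 in the *10xPerf* pair, and 3079 and 1198 in the *10xBulge* pair (log2 fold change 1.68, limma adjusted p = 0.0362). The *G6pdx* call was lost without N1 (adjusted p = 0.164), N2 (0.135) or N5 (0.168). The log2 ratio of *G6pdx* to *G6pd2* was -2.33 to -1.56 in wild type and *10xPerf* and 5.68 and 5.77 in the *10xBulge* pair. These copies are alike in coding sequence, so reads may be split between them as well.

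**Figure D5:**
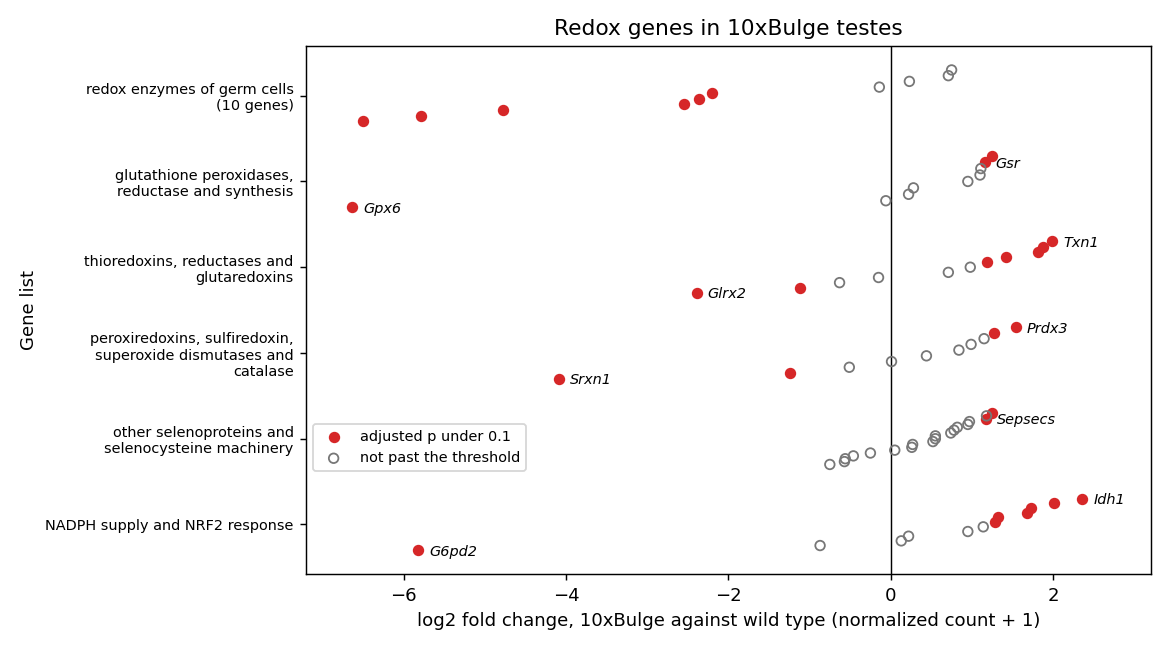
Log2 fold changes in *10xBulge* against wild type for the 10 redox enzymes of germ cells and for the 61 tested genes of 5 other redox lists, with 1 point per gene (filled, limma adjusted p under 0.1; open, not past the threshold). Filled points among the 10 lie at -2.20 and below. The other lists have filled points on both sides of 0, except that of other selenoproteins and selenocysteine machinery, whose 2 are above 0.

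Compared with *10xPerf* instead of wild type, *10xBulge* testes showed *Txndc2* lower by a log2 fold change of -6.23 (limma adjusted p = 1.39e-05), *Txndc8* by -5.30 (2.86e-05), *Nme8* by -3.06 (0.000627), *Selenov* by -6.27 (1.32e-05) and *Prdx4* by -2.46 (0.00182). *Txnrd3* stood at -0.26 (adjusted p = 0.706), *Prdx6* at 0.66 (0.299) and *Sod1* at 0.42 (0.52). The other redox lists gave 23 higher (37.7%, beside 12.9% of all genes) and 5 lower (8.20%, beside 24.1%) of 61 in this comparison. Without N3, limma called 0 of the 61 higher, with 4 higher at an unadjusted p under 0.05. The count was 7 without N5, and 15 without N1, N2 or N4.

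The gene with the most similar profile to a member was taken as that with the smallest Euclidean distance between log2 profiles over the 6 libraries, each centred on its own mean, among 15825 genes with a mean of at least 100. *Gpx4* was nearest to *Taco1os* (distance 0.14), *Txndc2* to *Ccdc70* (0.35), *Txndc8* to *4930522H14Rik* (0.27), *Nme8* to *Gm3182* (0.21) and *Prdx4* to *Bri3bp* (0.28). *Txnrd3* was nearest to *Rps24* (0.17), *Prdx6* to *Cldn5* (0.13), *Sod1* to *Wnt2* (0.09) and *Gpx1* to *Cuta* (0.18). Among the members themselves, the nearest pair was *Gpx1* and *Prdx6*, at 0.79. With 6 points in 3 genotypes these distances are descriptive.

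Promoter windows from RefSeq on GRCm38.p6, reaching from 250 bases before to 50 after each start, were found for 9 of the 10 members. They were searched on both strands for TGACG, the core of the cAMP response element (CRE) bound by CREB and CREM factors, of which CREM acts in spermatids, and for TGACNNNGC, the core of the antioxidant response element bound by NRF2. Both begin with TGAC, so a match to one can overlap a match to the other. TGACG was in 20.8% and TGACNNNGC in 12.4% of the 32851 promoters of the same length. Of the 6 genes that fell, *Gpx4* and *Prdx4* held the CRE core, shown here in capitals on the strand of the gene.
*Gpx4* (chr10:80053521-80053550, forward strand): accaataagagaCGTCAgtgggcgtgcccg
*Gpx4* (chr10:80053963-80053992, forward strand): cccggcctggtgCGTCAcagtcggcggcgc
*Prdx4* (chrX:155338539-155338568, reverse strand): tggctctcctttTGACGcaggcgcagaagc
*Gpx4* has 4 annotated starts, and 3 of its windows held a match. Overlapping windows shared the first *Gpx4* site shown, so their matches are not separate sites. The 20.8% is a share per window, and a gene with more windows has more chances of a match. *Sod1*, which did not pass the threshold, also held the CRE core, and it and *Txndc2* held the antioxidant core, *Txndc2* at the second of its starts. No match to either was found in the windows of *Txndc8*, *Txnrd3*, *Selenov*, *Gpx1* and *Nme8*. A search for TAACGG, the motif of MYB factors (2.76% of all promoters), found none in the 9 members, and TATAAA (13.6%) was found in *Sod1*. The *Prdx4* window searched (chrX:155338411-155338710) lies inside its gene span, which reaches chrX:155340754. A start at that end was not searched. The motifs describe the letters of these windows, and no binding was measured.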

How the data were processed

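Total RNA from whole mouse testes was sequenced in 6 libraries, and per the paper's methods the authors ran salmon with GC bias correction against Ensembl transcripts of GRCm39. The authors deposited normalized read counts from DESeq2, a signal for each gene in each library. They are not whole reads (8.87% of values were whole multiples of a step, within 0.001), so no count test was run. The authors' own log2 fold changes and adjusted p-values were also deposited and were not used. Every column of values was matched to a library or to a mean or comparison of the authors.

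A gene entered the tests if 2 or more libraries reached 10 (23782 of 51124 genes), and log2(value + 1) of all 6 libraries was fitted in limma 3.58.1 (R 4.3.3) by genotype, allowing for a mean-variance trend. Fold changes on this scale understate those of low genes. Calls used a Benjamini-Hochberg adjusted p under 0.1. Within genotypes, Pearson's r of log2 values across genes was 0.951 to 0.958. The procedure was tested on simulated data, drawn independently for each gene with few genes changed. That checks the code and does not measure the error rate in these data. The members and gene lists were chosen with earlier results of these data known. Named besides the members were, from each list, the gene with the smallest p in each direction among those called in *10xBulge* without overlap, and the nearest profile of each member, of which 1 is not reported here. Approximate depth is each library's sum divided by the worth of 1 read. Gene positions and coding sequences came from GENCODE M21 on GRCm38, while the values rest on GRCm39. Python 3.11.15 and matplotlib 3.10.9 were used for summaries and figures.

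The alternatives were other scalings (library totals, upper quartile, a trimmed mean of log ratios), pseudocounts of 0.1 and 10, other filters, only both genotypes in the fit, no trend, removal of the GC trend, an adjusted p under 0.05, coding length and leaving out each library.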

Additional observations from a re-analysis of the deposited data

How the results depend on the processing

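The count of 6 members lower in *10xBulge* than in wild type was the same under every alternative, and against *10xPerf* it was 6 except without N3 or without N4, when it was 5. Members higher against wild type rose from 0 to 2 with library totals and to 1 with the GC trend removed (*Sod1*, 0.73, limma adjusted p = 0.0972), and were 0 whichever library was left out. Against *10xPerf* they went from 1 to 2 with library totals (*Prdx6*, 0.91, adjusted p = 0.0901), to 0 at an adjusted p under 0.05, and to between 0 and 1 with a library left out. Other redox genes higher against wild type went from 17 to 35 with library totals, 28 with the GC trend removed, 10 at an adjusted p under 0.05, 10 without the mean-variance trend, 9 with only both genotypes, and 4 to 20 with a library left out. Against *10xPerf* they went from 23 to 15 with only both genotypes, 12 at an adjusted p under 0.05, 15 without the trend, and 0 to 26 with a library left out. Fewer libraries in a fit leave fewer degrees of freedom, and a lone library is then assumed to vary like the other genotypes. With coding length, 8 members changed place.

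Directions reversed only where no call was made. In *10xPerf*, removing the GC trend turned *Gpx4* to 0.13 and *Selenov* to 0.22, and leaving out a library gave ranges of -0.089 to 0.33 for *Txnrd3*, -0.28 to 0.48 for *Prdx4*, -0.86 to 0.016 for *Prdx6*, -0.071 to 0.65 for *Sod1* and -0.97 to 0.57 for *Ythdc2*. In *10xBulge*, *Txnrd3* turned to 0.24 with library totals, and leaving out a library gave -0.59 to 0.30 for *Txnrd3* against wild type, -0.71 to 0.18 against *10xPerf*, and -0.49 to 1.06 for *Ythdc2*. Library totals moved the median of all genes to 0.35 in *10xBulge* and 0.15 in *10xPerf* against wild type, and to 0.17 between both lines. For none of these shifts was a cause tested. No paired analysis was possible because the libraries carry different numbers in each genotype. With 2 libraries a genotype the intervals given were wide, and differences of a size inside them remain possible.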
